A study of Mus with 10 samples.

Results

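Cathepsins and their partners in cytotoxic granules were examined in liver ILC1s with and without NKp46. The genes were the cathepsins *Ctsb*, *Ctsc*, *Ctsd*, *Ctsl*, *Ctss*, *Ctsw* and *Ctsz*, the granule proteoglycan *Srgn*, the granule membrane gene *Lamp1* and the granzyme B inhibitor *Serpinb9*. They were taken by name as lysosomal and granule proteases and carriers other than granzymes, and make up 10 of the 24564 genes in the deposited count table. All 10 genes passed the filter on low counts, as did 11463 genes in all.

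ILC1s are tissue-resident innate lymphocytes, and NKp46 is the activating receptor encoded by *Ncr1*. The series holds 5 libraries of Ncr1+/+ ILC1s and 5 of Ncr1gfp/gfp ILC1s, all from C57BL/6 livers of 6- to 8-week-old mice, male or female. In Ncr1gfp/gfp mice, *gfp* sits in place of *Ncr1* in every cell from the germline on. Ncr1+/+ ILC1s were sorted as Lin- NK1.1+ NKp46+ CD49b- CD49a+ cells, whereas GFP took the place of NKp46 staining for Ncr1gfp/gfp ILC1s, so that genotype and gate cannot be told apart. The study's legends speak of RNA pools, but the sources do not say how many mice went into a pool or which mice gave which library, and p-values measure the spread between these libraries only.

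Cytotoxic lymphocytes keep their killing proteins in secretory lysosomes, which are granules with an acid interior that also hold ordinary lysosomal proteases. Granzymes are made as inactive proenzymes, and cathepsin C removes the short propeptide that keeps them inactive. Serglycin, a proteoglycan with chondroitin sulfate chains, packs granzymes and perforin in the granule, while the serpin encoded by *Serpinb9* sits in the cytosol and inhibits granzyme B that leaks out of it.

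Total counts ranged from 17996935 to 22623133 in Ncr1+/+ and from 15796253 to 21975879 in Ncr1gfp/gfp libraries, and the genotypes did not differ in depth beyond their spread (p = 0.254 in a two-sided exact permutation test, n = 5 each). Values are given as CPM (counts scaled to library size with TMM factors), on which scale 3 counts amount to between 0.132 and 0.190 CPM. *Ncr1* itself, the targeted gene, had 1913 to 2144 CPM in Ncr1+/+ and 141 to 356 CPM in Ncr1gfp/gfp libraries, the latter at 12.7% of the Ncr1+/+ mean. The 7 ILC1 markers in the table summed to between 4314 and 4567 CPM over all 10 libraries. Within this sum, 3 markers were higher and 4 lower in Ncr1gfp/gfp libraries. *Itga1*, which encodes the CD49a of the sorting gate, had 928 to 1012 CPM in Ncr1gfp/gfp and 732 to 805 CPM in Ncr1+/+ libraries. It was the 1 ILC1 marker that passed the test described below. Of 10 marker lists of other cell types, 2 had summed levels that did not overlap between the genotypes and 8 overlapped. T cell markers summed to 634 to 836 CPM in Ncr1gfp/gfp and 461 to 580 CPM in Ncr1+/+ libraries. This sum mainly followed *Cd3g*, while *Cd3e* had 9.05 to 38.8 and 2.80 to 6.85 CPM, respectively. Monocyte and neutrophil markers summed to 106 to 222 and 256 to 312 CPM, mostly from *Ccr2* at 101 to 201 and 214 to 286 CPM. Of these 9 markers, 4 were tested, all with a log2 fold change below 0, and *Ccr2* alone passed. *S100a8* and *S100a9*, too low to be tested, reached 3.07 and 6.88 CPM in Ncr1gfp/gfp but 0 and 0.168 CPM in Ncr1+/+ libraries. In bulk libraries like these, fewer cells of a type and less RNA per cell cannot be told apart.

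The 10 genes spanned a wide range of levels. Levels were compared between genes as CPM per kilobase of exon, which takes gene length into account. *Ctsw*, a cathepsin found mainly in NK cells and cytotoxic T cells, had 678 ± 41.7 CPM per kilobase (SD, n = 10 libraries), and *Ctsd*, the aspartic protease of lysosomes, had 668 ± 32.2. *Ctsw* was above *Ctsd* in 7 of 10 libraries, so the order of these neighbours did not hold beyond their spread. Both stood above more than 99.7% of tested genes on this scale. *Srgn* came next at 386 ± 21.1 CPM per kilobase, below *Ctsd* in all 10 libraries and above every gene that follows.

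*Serpinb9* had a level of 51.3 ± 6.25 and *Ctsb*, a cysteine protease, 48.4 ± 5.46 CPM per kilobase (SD, n = 10). *Serpinb9* was above *Ctsb* in 5 of 5 Ncr1gfp/gfp but 2 of 5 Ncr1+/+ libraries. *Lamp1*, whose product CD107a marks granules that have fused with the cell surface, had 38.0 ± 4.23 CPM per kilobase. The carboxypeptidase gene *Ctsz* had 20.2 ± 3.10 and *Ctsc* 16.3 ± 1.62 CPM per kilobase. The gene length listed for *Ctsc* was 11061 bases, the longest of the 10, and its level on this scale depends on that length. *Ctss* and *Ctsl*, cysteine proteases best known from antigen-presenting cells, were lowest at 6.02 ± 3.22 and 1.77 ± 0.65 CPM per kilobase. From *Lamp1* down, each gene was above the next in at least 9 of 10 libraries.

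**Figure D1:**
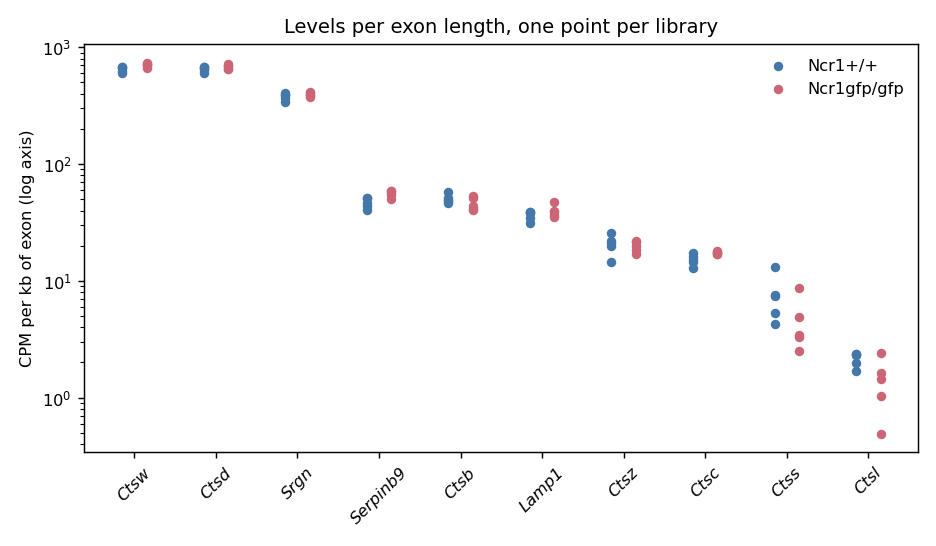
Level of each granule gene per exon length (CPM per kilobase, log axis), with a point for each Ncr1+/+ (blue) and Ncr1gfp/gfp (red) library and genes in order of their mean. *Ctsw*, *Ctsd* and *Srgn* sit at 386 to 678 on average, and *Ctss* and *Ctsl* at 6.02 and 1.77.

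Summed over the 10 genes, the level was 3446 ± 86.9 CPM in Ncr1gfp/gfp and 3264 ± 99.5 CPM in Ncr1+/+ ILC1s (SD over 5 libraries). *Ctsd* and *Ctsw* alone gave 68.0% of this sum, so it mainly follows those genes. The 7 cathepsin genes summed to 2798 ± 69.4 and 2669 ± 109 CPM, respectively.

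To determine whether loss of NKp46 came with a change in any of these genes, Ncr1gfp/gfp ILC1s were compared to Ncr1+/+ ILC1s across all tested genes. None of the 10 genes passed an adjusted p of 0.05, against 1.35% of all tested genes (quasi-likelihood (QL) test of edgeR, with p-values adjusted after Benjamini and Hochberg over 11463 genes). Accordingly none was called with the added fold thresholds of above 1.5 or below 0.7, which 0.733% of all tested genes passed. Before adjustment, 4 of the 10 genes, *Serpinb9*, *Ctsc*, *Ctsw* and *Ctss*, had a p under 0.05, against 11.4% of all tested genes. With DESeq2's Wald test, 1 of the 10, *Serpinb9*, passed the adjusted threshold, against 2.54% of the genes given an adjusted p by that test. It also passed in edgeR without the filter on low counts, where 1.59% of genes did. None of the 10 genes had values that were fully apart between the genotypes, a pattern seen in 3.11% of all tested genes. Log2 fold changes (Ncr1gfp/gfp against Ncr1+/+) were above 0 for 6 genes and below 0 for 4, with a median of 0.06 beside 0.00 over all tested genes.

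**Figure D2:**
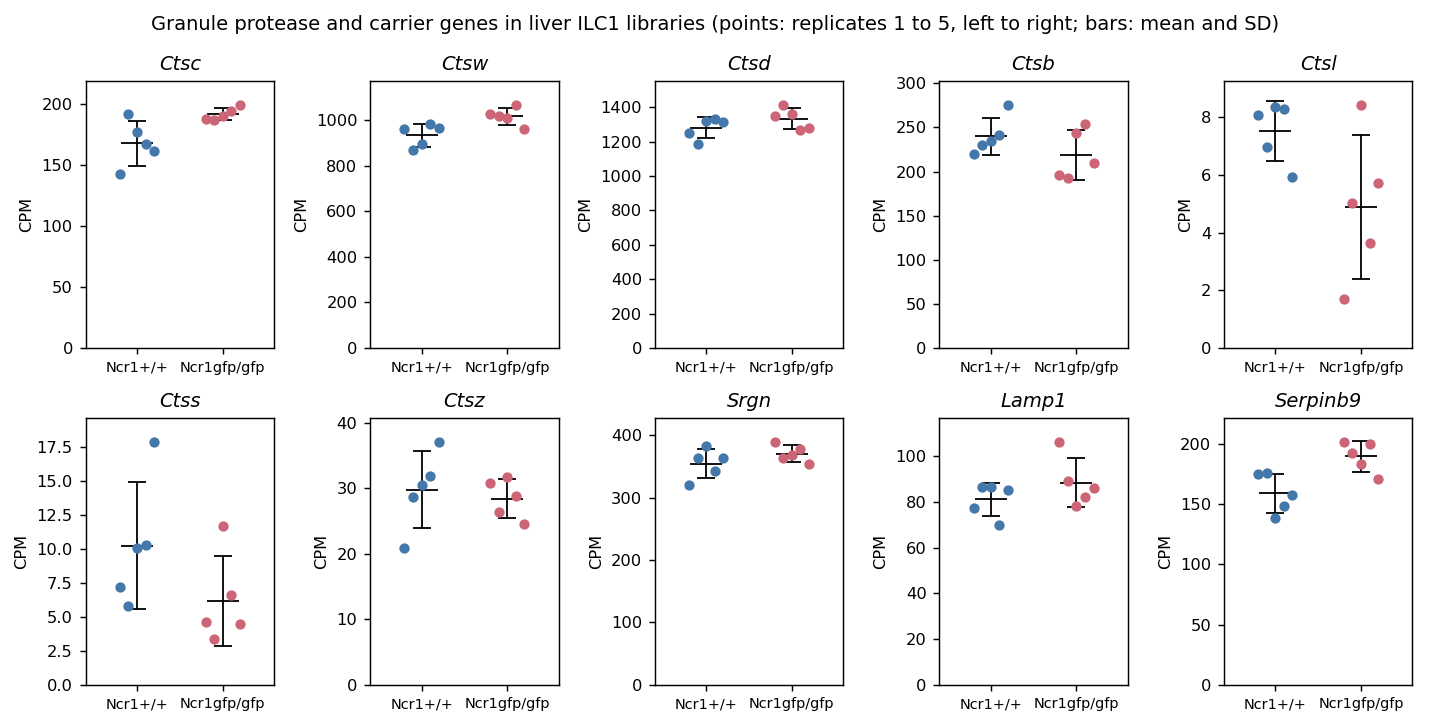
CPM of each granule gene in Ncr1+/+ (blue) and Ncr1gfp/gfp (red) libraries, each axis from 0, with points for replicates 1 to 5 and black bars for the mean and SD. The genotypes overlap for all 10 genes; *Serpinb9* and *Ctsw* have 4 of 5 Ncr1gfp/gfp libraries above the highest Ncr1+/+ library.

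The protease that activates granzymes was considered first. *Ctsc* is listed on chromosome 7 (plus strand, 95426595 to 95464371), 91.1 Mb from *Ncr1* on the same chromosome. Its CPM was 188, 187, 190.3, 195 and 199 in Ncr1gfp/gfp replicates 1 to 5 and 143, 192, 177, 168 and 162 in Ncr1+/+ replicates 1 to 5. The Ncr1gfp/gfp libraries lay close together, with a coefficient of variation of 2.57%, while Ncr1+/+ libraries were more spread, and all 5 were above the Ncr1+/+ mean. However, Ncr1+/+ replicate 2 was higher than 3 of them. This gave a log2 fold change of 0.19 (standard error, SE, 0.07, 95% confidence interval 0.05 to 0.33, adjusted p = 0.233, edgeR QL test).

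Cathepsin C is itself held back by cystatin F, the product of *Cst7*, which is a cysteine protease inhibitor of cytotoxic granules. *Cst7* was the gene of the 3 tested cystatins that passed the test. It had 193, 185, 192, 166 and 155 CPM in Ncr1gfp/gfp replicates 1 to 5 and 144, 126, 146, 152 and 147 CPM in Ncr1+/+ replicates 1 to 5, and every Ncr1gfp/gfp library was above every Ncr1+/+ library. *Cst7* rose with a log2 fold change of 0.31 (SE 0.07, 95% confidence interval 0.16 to 0.46, adjusted p = 0.0280, edgeR QL test), which is below the fold threshold. The adjusted p went above 0.05 when Ncr1gfp/gfp replicate 1, 2 or 3 or Ncr1+/+ replicate 1, 2 or 3 was left out, reaching 0.0779. Within a library, the ratio of *Cst7* to *Ctsc* CPM was 0.929 ± 0.109 in Ncr1gfp/gfp and 0.863 ± 0.134 in Ncr1+/+ ILC1s (SD, n = 5; exact permutation test, two-sided, p = 0.421, Benjamini-Hochberg adjusted 0.421 over the 4 ratios tested, which were chosen after the values were seen).

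*Serpinb9* had the smallest p of the 10 genes. It is listed on chromosome 13 (plus strand, 33096410 to 33109824). Its CPM was 202, 193, 183, 199.9 and 171 in Ncr1gfp/gfp replicates 1 to 5 and 175, 176, 138, 149 and 158 in Ncr1+/+ replicates 1 to 5. Ncr1gfp/gfp replicate 5 lay among the Ncr1+/+ values, and the other 4 Ncr1gfp/gfp libraries were above all of them. For *Serpinb9* the log2 fold change was 0.25 (SE 0.07, 95% confidence interval 0.10 to 0.40, adjusted p = 0.0914, edgeR QL test), rank 261 of all tested genes. With DESeq2's Wald test the adjusted p was 0.0274 at a log2 fold change of 0.26, and without the filter on low counts it was 0.0394 in edgeR. The paralogs *Serpinb9b* to *Serpinb9g* had at most 9 counts in any library. Reads that map to several genes are dropped in counting, so these counts cannot show whether *Serpinb9* lost shared reads.

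The target of this inhibitor is granzyme B. RNA of *Gzma*, *Gzmb* and *Gzmc* rose in Ncr1gfp/gfp ILC1s, with log2 fold changes of 0.44, 0.55 and 0.72, respectively. Their adjusted p was 0.00207, 0.00813 and 0.00186 (edgeR QL test, 3 of 6 tested granzyme and perforin genes, where near-identical genes can lose shared reads). *Prf1*, the perforin gene, had a log2 fold change of 0.00 and was not among those that passed. By flow cytometry, the study reported lower GzmB and GzmC expression in Ncr1gfp/gfp than in Ncr1+/+ ILC1s, with GzmA comparable. For *Gzmb* and *Gzmc*, the RNA values thus went the other way from this result, which the legend gives as granzyme-positive cells. That is a different measure from RNA per library, and the sources do not tie its mice to these libraries. The ratios of *Gzmb* to *Serpinb9*, *Ctsc* and *Srgn* within each library, chosen after the values were seen, were higher on average in Ncr1gfp/gfp ILC1s. None of these differences passed an adjusted p of 0.05, which does not show that these genes kept pace with *Gzmb*. The ratio of *Gzmb* to *Serpinb9* CPM was 16.2 ± 3.53 in Ncr1gfp/gfp and 13.2 ± 1.42 in Ncr1+/+ ILC1s (SD, n = 5; exact permutation test, two-sided, p = 0.143, adjusted 0.201). For *Gzmb* to *Ctsc*, it was 16.1 ± 4.23 and 12.6 ± 1.90 (exact permutation p = 0.151, adjusted 0.201). For *Gzmb* to *Srgn*, it was 8.28 ± 1.96 and 5.93 ± 0.65 (exact permutation p = 0.0476, adjusted 0.190). That is a log2 ratio difference of 0.46, beside the log2 fold change of 0.55 of *Gzmb* itself.

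*Srgn* and *Lamp1*, the carrier and the membrane marker of the granule, did not pass the test. *Srgn*, on chromosome 10 (minus strand, 61957176 to 61970503), had 389, 363, 368, 377 and 354 CPM in Ncr1gfp/gfp replicates 1 to 5 and 321, 363, 382, 343 and 363 CPM in Ncr1+/+ replicates 1 to 5. Apart from the low Ncr1+/+ replicate 1, the genotypes covered nearly the same range. Its log2 fold change was 0.06, with a 95% confidence interval of -0.05 to 0.18 (adjusted p = 0.753, edgeR QL test), or 0.966- to 1.13-fold.

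*Lamp1* is listed on chromosome 8 (plus strand, 13159161 to 13175338). It had 106, 89.0, 78.4, 82.3 and 86.0 CPM in Ncr1gfp/gfp replicates 1 to 5 and 77.4, 86.4, 86.4, 70.1 and 85.2 CPM in Ncr1+/+ replicates 1 to 5. Ncr1gfp/gfp replicate 1 stood above the rest, and the other 4 Ncr1gfp/gfp libraries lay between 78.4 and 89.0 CPM. The log2 fold change of 0.12 (95% confidence interval -0.06 to 0.30, adjusted p = 0.662, edgeR QL test) was 0.05 without that library.

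The pair of most abundant cathepsins differed little between the genotypes. *Ctsw*, on chromosome 19 (minus strand, 5465043 to 5468507), had 1026, 1019, 1008, 1064 and 961 CPM in Ncr1gfp/gfp replicates 1 to 5 and 958, 867, 893, 981 and 966 CPM in Ncr1+/+ replicates 1 to 5. All but Ncr1gfp/gfp replicate 5 were above every Ncr1+/+ library. The difference was small, at a log2 fold change of 0.12 (SE 0.05, 95% confidence interval 0.03 to 0.22, adjusted p = 0.262, edgeR QL test). *Ctsw* is also known from cytotoxic T cells, and the T cell markers *Cd3e* and *Cd8a*, named here after their values were seen, had 9.05 to 38.8 and 11.8 to 36.4 CPM in Ncr1gfp/gfp against 2.80 to 6.85 and 1.35 to 9.70 CPM in Ncr1+/+ libraries. Of the 9 T cell markers, 6 were tested and 3 passed, all higher in Ncr1gfp/gfp ILC1s. *Cd4* did not pass, with 0.741 to 4.46 CPM in Ncr1gfp/gfp and 0.897 to 3.13 CPM in Ncr1+/+ libraries. *Cd8b1*, too low to be tested, was at 0 in 5 libraries. It reached 0.053 CPM in Ncr1gfp/gfp and 0.841 CPM in Ncr1+/+ libraries. The 7 NK cell markers summed to 57.2 to 99.4 CPM in Ncr1gfp/gfp and 49.2 to 69.1 CPM in Ncr1+/+ libraries. Of these, 5 were tested, with 4 higher and 1 lower in Ncr1gfp/gfp ILC1s, and none passed. The part of T cells or NK cells in the *Ctsw* values was not tested.

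*Ctsd* is listed on chromosome 7 (minus strand, 149561821 to 149573775), 145 Mb from *Ncr1*. It had 1348, 1411, 1359, 1266 and 1276 CPM in Ncr1gfp/gfp replicates 1 to 5 and 1252, 1188, 1319, 1331 and 1311 CPM in Ncr1+/+ replicates 1 to 5. The ranges overlapped, and 3 Ncr1gfp/gfp libraries were above the highest Ncr1+/+ library. At a log2 fold change of 0.06 (95% confidence interval -0.04 to 0.15, adjusted p = 0.719, edgeR QL test), *Ctsd* had the narrowest interval of the 10 genes.

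*Ctsb* and *Ctsz* had values slightly lower on average in Ncr1gfp/gfp ILC1s, without passing the test. *Ctsb*, on chromosome 14 (plus strand, 63741299 to 63764760), had 196, 192, 244, 253 and 209 CPM in Ncr1gfp/gfp replicates 1 to 5 and 219.8, 230.2, 234, 241 and 275 CPM in Ncr1+/+ replicates 1 to 5. Ncr1gfp/gfp replicates 1, 2 and 5 were below every Ncr1+/+ library, while replicates 3 and 4 were above 4 of them. Its log2 fold change was -0.13 (95% confidence interval -0.30 to 0.03, adjusted p = 0.566, edgeR QL test).

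*Ctsz*, on chromosome 2 (minus strand, 174252995 to 174264540), had 30.9, 26.3, 31.7, 28.8 and 24.5 CPM in Ncr1gfp/gfp replicates 1 to 5 and 20.9, 28.7, 30.5, 31.9 and 37.1 CPM in Ncr1+/+ replicates 1 to 5. The lowest and the highest value both came from Ncr1+/+ ILC1s, and all Ncr1gfp/gfp values lay between them. Accordingly, its log2 fold change was -0.07 (95% confidence interval -0.34 to 0.20, adjusted p = 0.914, edgeR QL test) and turned to 0.021 without Ncr1+/+ replicate 5.

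**Figure D3:**
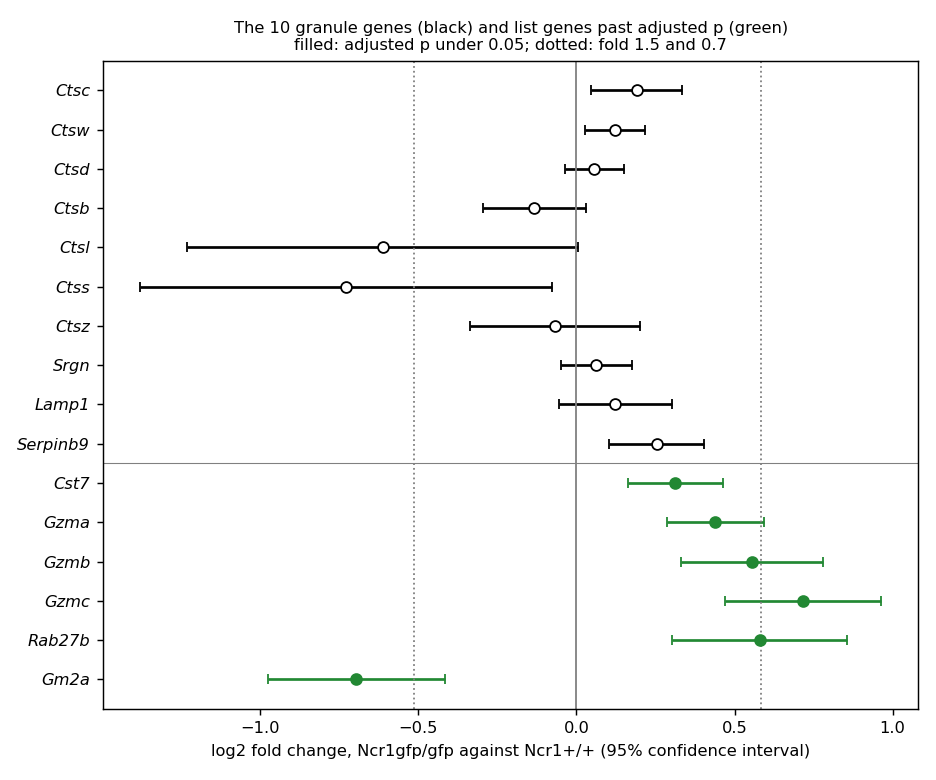
Log2 fold change of Ncr1gfp/gfp against Ncr1+/+ ILC1s with its 95% confidence interval for the 10 granule genes (black) and for the related genes that passed an adjusted p of 0.05 (green, filled). The dotted lines mark fold changes of 1.5 and 0.7, and 8 of the 10 black intervals lie between them; those of *Ctsl* and *Ctss* reach below 0.7.

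The intervals of 8 of the 10 genes lay wholly between the fold thresholds of 0.7 and 1.5. *Ctss* and *Ctsl* were the exceptions. They also had the fewest counts, 73 to 328 and 27 to 167 per library. *Ctss*, on chromosome 3 (plus strand, 95330708 to 95360327), had 4.64, 3.38, 11.7, 6.60 and 4.46 CPM in Ncr1gfp/gfp replicates 1 to 5 and 7.18, 5.78, 10.0, 10.3 and 17.8 CPM in Ncr1+/+ replicates 1 to 5. In each genotype 1 library stood well above the others, Ncr1gfp/gfp replicate 3 and Ncr1+/+ replicate 5, and the values overlapped. For *Ctss* the log2 fold change was -0.73 (SE 0.31, 95% confidence interval -1.38 to -0.08, adjusted p = 0.351, edgeR QL test). It was -0.43 without Ncr1+/+ replicate 5 and -1.10 without Ncr1gfp/gfp replicate 3 (adjusted p of 0.693 and 0.0742, same test).

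*Ctsl* is listed on chromosome 13 (minus strand, 64463198 to 64471828). It had 1.71, 5.03, 8.42, 3.63 and 5.71 CPM in Ncr1gfp/gfp replicates 1 to 5 and 8.07, 6.97, 8.35, 8.28 and 5.93 CPM in Ncr1+/+ replicates 1 to 5. All but 1 of the Ncr1gfp/gfp libraries were below every Ncr1+/+ library, but replicate 3 was the highest of all 10. Hepatocyte markers were also highest in that library, at 66.4 CPM, and the part of such cells in *Ctsl* was not tested. The coefficient of variation of *Ctsl* was 50.8% in Ncr1gfp/gfp against 13.9% in Ncr1+/+ ILC1s. The log2 fold change of *Ctsl* was -0.61 (SE 0.30, 95% confidence interval -1.23 to 0.01, adjusted p = 0.447, edgeR QL test). It was -0.40 without Ncr1gfp/gfp replicate 1 and -0.90 without Ncr1gfp/gfp replicate 3.

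*Ctss* and *Ctsl* are strongly expressed by macrophages, and Kupffer cells are the macrophages of the liver. The 11 macrophage markers summed to 15.6, 7.86, 26.7, 43.1 and 16.9 CPM in Ncr1gfp/gfp replicates 1 to 5 and 7.51, 22.9, 31.7, 26.2 and 57.03 CPM in Ncr1+/+ replicates 1 to 5. These ranges overlapped, none of the 8 markers tested passed, and 7 of the 8 had a log2 fold change below 0. Ncr1+/+ replicate 5 was highest in *Ctss* and in the marker sum. Ncr1gfp/gfp replicate 3 and Ncr1+/+ replicates 3 and 4 came next in *Ctss*, with 26.7, 31.7 and 26.2 CPM of the markers. Ncr1gfp/gfp replicates 1, 2 and 5 were lowest in *Ctss*, with 15.6, 7.86 and 16.9 CPM of the markers. Apart from these, Ncr1gfp/gfp replicate 4, second in the marker sum, had 6.60 CPM of *Ctss*. Ncr1+/+ replicate 1, lowest in the marker sum, had 7.18 CPM, above 4 of the 5 Ncr1gfp/gfp libraries. No marker was at 0 in all libraries, and *Marco* was at 0 in 4. *Lyz2*, a myeloid gene named here after its values were seen, had 0.960 to 18.3 CPM in Ncr1gfp/gfp and 3.08 to 22.1 CPM in Ncr1+/+ libraries. Like *Ctss*, it was highest in Ncr1gfp/gfp replicate 3 and Ncr1+/+ replicate 5 of their genotypes. The part of such cells in the *Ctss* and *Ctsl* values was not tested.

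**Figure D4:**
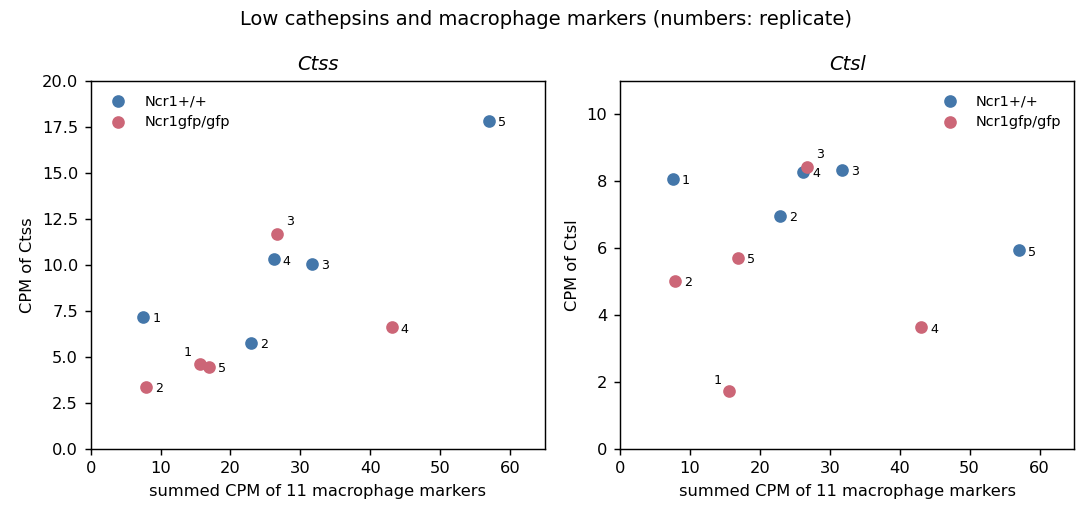
CPM of *Ctss* (left) and *Ctsl* (right) against the summed CPM of the 11 macrophage markers, with a numbered point for each Ncr1+/+ (blue) and Ncr1gfp/gfp (red) replicate. Ncr1+/+ replicate 5 is highest in the markers (57.03) and in *Ctss* (17.8), but has 5.93 CPM of *Ctsl*. Ncr1gfp/gfp replicates 1, 2 and 5 are lowest in *Ctss*, at 15.6, 7.86 and 16.9 CPM of the markers. Ncr1gfp/gfp replicate 4, second in the markers (43.1), has 6.60 CPM of *Ctss*.

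Other parts of the granule and lysosome machinery were counted beside the 10 genes. Of 16 other cathepsin genes, 4 were tested and none passed. *Ctsa*, a lysosomal carboxypeptidase, had 290.3 ± 8.52 CPM in Ncr1gfp/gfp and 295 ± 18.7 CPM in Ncr1+/+ ILC1s (SD over 5 libraries), and *Ctse*, an aspartic protease, 15.8 ± 2.43 and 20.4 ± 2.65 CPM, at a log2 fold change of -0.37 (adjusted p = 0.231, edgeR QL test). The cathepsin genes that were not tested had at most 17 counts in any library. Of 22 other genes of the same serpin clade as *Serpinb9*, 3 were tested and none passed. The most abundant of them per length, *Serpinb6b*, had a log2 fold change of -0.05 (95% confidence interval -0.19 to 0.10).

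Among the 18 genes of granule biogenesis and release, all tested, 1 rose and none fell, with a median log2 fold change of 0.03. The gene that rose was *Rab27b*, which encodes a Rab GTPase of secretory granules. It had 27.2, 34.9, 38.5, 26.2 and 35.7 CPM in Ncr1gfp/gfp replicates 1 to 5 and 28.4, 21.2, 19.2, 19.6 and 20.6 CPM in Ncr1+/+ replicates 1 to 5, a log2 fold change of 0.58 (SE 0.13, adjusted p = 0.0277, edgeR QL test). Ncr1+/+ replicate 1 lay above Ncr1gfp/gfp replicates 1 and 4. The adjusted p went above 0.05 when Ncr1gfp/gfp replicate 2, 3 or 5 or Ncr1+/+ replicate 2, 3, 4 or 5 was left out, reaching 0.0881.

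Of 31 other lysosomal hydrolases and their activators, 1 fell and none rose, although 21 had a log2 fold change below 0, with a median of -0.08. *Gm2a*, the activator protein that helps break down the ganglioside GM2, had 10.4, 14.1, 15.5, 14.5 and 16.0 CPM in Ncr1gfp/gfp replicates 1 to 5 and 24.3, 21.1, 21.2, 20.7 and 26.8 CPM in Ncr1+/+ replicates 1 to 5. Every Ncr1gfp/gfp library was below every Ncr1+/+ library. *Gm2a* was called, with a log2 fold change of -0.70 (SE 0.13, adjusted p = 0.00773, edgeR QL test).

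None of the 16 lysosomal membrane genes passed, with a median log2 fold change of -0.01. The same held for 15 tested subunits of the proton pump that acidifies the lysosome (median -0.01) and for the 6 genes that sort enzymes to it (median -0.02). It also held for 9 tested transcription regulators of lysosomal genes (median 0.02) and for 13 tested genes that build the chondroitin sulfate chains of serglycin (median -0.03). In the sorting group, *Igf2r*, a mannose 6-phosphate receptor, had 197 ± 24.7 CPM in Ncr1gfp/gfp and 168 ± 17.3 CPM in Ncr1+/+ ILC1s (SD over 5 libraries), with a log2 fold change of 0.23 (95% confidence interval 0.06 to 0.41, adjusted p = 0.225, edgeR QL test). In the chondroitin sulfate group, *Chst15*, a sulfotransferase, had 10.4 ± 1.81 and 15.1 ± 4.87 CPM, a log2 fold change of -0.54 (95% confidence interval -0.95 to -0.14, adjusted p = 0.228, same test). Between these lists and the 10 genes, medians lay between -0.08 and 0.06, beside 0.00 over all tested genes, except for granzymes and perforin at 0.34.

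**Figure D5:**
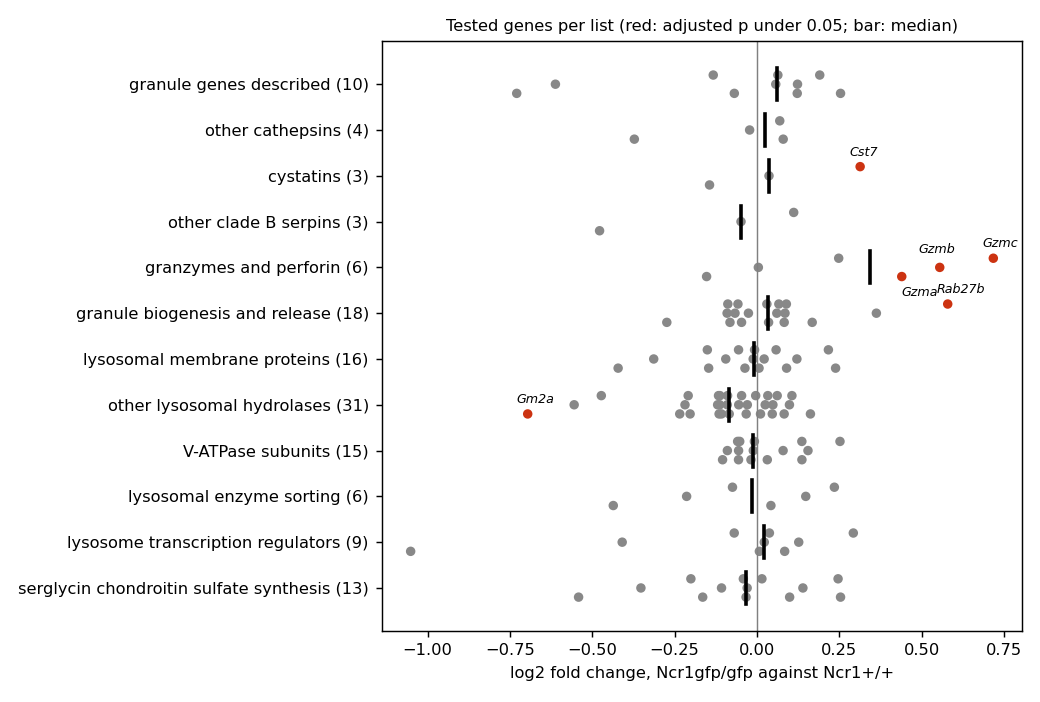
Log2 fold change of each tested gene (points) in the 10 granule genes and in lists of related genes, with the number tested in brackets, the median as a black bar and genes past an adjusted p of 0.05 in red. The red genes are *Cst7*, *Gzma*, *Gzmb*, *Gzmc* and *Rab27b* above 0 and *Gm2a* below 0, and none of the top row is red.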

How the data were processed

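Liver ILC1s were sorted, and their RNA was amplified from polyA with a kit that does not mark strand and read from one end. The authors removed adapters and polyA tails, used STAR for mapping to what the methods name as mm10, took counts per gene from HTSeq at default settings and deposited these without normalization. Coordinates in the table differ from those of GRCm38 and its build is not named, so they are printed as listed. HTSeq's defaults drop reads that map to several places, which can lower genes with near-identical copies.

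Genes were filtered with filterByExpr, scaled by TMM and tested with edgeR 4.0.16 (glmQLFit, glmQLFTest) in R 4.3.3 on the whole table, with genotype as the only term and Benjamini-Hochberg adjustment. Levels per length used the exon lengths deposited in the table. Alternatives were DESeq2 1.42.0, limma 3.58.1, other scaling, filters and thresholds, a replicate block and leaving out each library. The alternative without both libraries high in hepatocyte markers, and those for genes outside the 10, were added after seeing the data.

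The 10 genes and all lists were chosen with earlier results of these data known. Named from each list were the genes past an adjusted p of 0.05, and otherwise some of the most abundant or most different. Each pair of replicates differed beyond counting noise, so all were kept apart. No sequences are printed.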

Additional observations from a re-analysis of the deposited data

Results flagged for a closer look

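In groups of 5 libraries, the highest or lowest value was examined for a gap to its neighbour above 0.71 of the group's range (Dixon's limit), for the granule genes, the related genes named and the marker sums. Of 110 such groups 4 passed, where chance gives about 5.5. None of them was one of the 10 granule genes. *Rab27b* had 28.4 CPM in Ncr1+/+ replicate 1, with the next library at 21.2 CPM. Hepatocyte markers summed to 66.4 CPM in Ncr1gfp/gfp replicate 3, with the next at 6.42, and to 35.8 CPM in Ncr1+/+ replicate 1, with the next at 5.96. Erythroid markers summed to 9.14 CPM in Ncr1+/+ replicate 5, with the next at 1.85.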

How the results depend on the processing

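The number of genes past an adjusted p of 0.05 was 155. It was 299 with DESeq2's Wald test, 264 with edgeR's likelihood ratio test, 264 without the filter on low counts, 100 to 160 with 1 library left out and 95 without both Ncr1+/+ replicate 1 and Ncr1gfp/gfp replicate 3, which were high in hepatocyte markers. The 84 called genes became 138 with the likelihood ratio test, 131 without the filter and 23 with an absolute log2 fold change above 1. The cause was not tested. Of the 10 granule genes, 1 passed with DESeq2's Wald test and 1 without the filter, *Serpinb9* both times, and none in the other alternatives. Its log2 fold change was 0.21 to 0.30 over 19 alternatives, with adjusted p of 0.0274 to 0.248. With 1 library left out, the log2 fold change of *Ctsz* ran from -0.17 to 0.021, above 0 without Ncr1+/+ replicate 5, and no other of these genes changed direction in any alternative. *Gzma*, *Gzmc* and *Gm2a* passed in all 19 alternatives and *Gzmb* in 18, with an adjusted p of 0.0596 without both libraries high in hepatocyte markers. *Cst7* passed in 10 and *Rab27b* in 11. Without both libraries high in hepatocyte markers, *Ctss* and *Ctsl* had log2 fold changes of -1.21 and -0.87 (adjusted p of 0.0680 and 0.253, edgeR QL test). They had the fewest counts, 27 to 328 per library, and the widest intervals of the 10 genes. How much of that width is depth was not tested.

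The replicate numbers are shared by the genotypes, but same-numbered libraries did not deviate together (correlations of -0.02 to 0.04). Among Ncr1gfp/gfp libraries, only replicate 1 correlated best with the Ncr1+/+ library of its own number. With the replicate block, 156 genes passed and none of the 10 granule genes did, and the adjusted p was 0.0569 for *Cst7* and 0.0536 for *Rab27b*, both above 0.05.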
